A study of Homo sapiens with 6 samples.

Results

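Translation efficiency, the ratio of ribosome footprints to RNA, was compared between HEK293T cells treated with an inhibitor of PRMT4 and cells treated with the vehicle DMSO. HEK293T cells derive from human embryonic kidney and make the large T antigen of SV40. PRMT4, also known as CARM1, is an enzyme that methylates arginine residues of proteins. The comparison used 4 of the 6 libraries of the study, namely the footprint and input libraries labelled PRMT4 inhibitor (input taken as the RNA level) and the footprint and input libraries labelled DMSO. The remaining footprint and input libraries were labelled with an inhibitor of PRMT1, another arginine methyltransferase. All 6 came from the same cell line, no group carried a genetic change, and the compounds, their doses and the treatment times are not named in the labels. Of 19725 protein-coding genes in the expression table, the 8117 with a mean of at least 5 TPM, a transcript abundance scaled for length and library total, over the 6 libraries were included, and 11608 fell under that level. Next to that threshold lay ZBTB11 inside, with a mean of 5 TPM and a change of 0.00, and SDC3 outside, with a mean of 4.997 TPM and a change of -0.54.

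The change in translation efficiency (TE change) was the log2 of the footprint-to-input ratio under the PRMT4 label minus the log2 of the same ratio in DMSO, with 1 TPM added to each value. It was centred on the median of the 8117 genes, which before centring was 0.38, so that each value is relative to the median message and says nothing of translation as a whole. A second value replaced the PRMT4-label input with the PRMT1-label input and was centred in the same way, from a median of 0.16. Both values rest on the same PRMT4-label footprints and the same DMSO libraries, so they are not independent. Each group had 1 library. There was therefore no replicate error and no test could be made. The differences hold for these libraries and cannot be taken as effects of the treatment in general.

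In ribosome profiling, RNase digests the RNA that ribosomes do not cover, and sequencing the remaining fragments shows where and how densely ribosomes sit. Setting the footprints of a gene against its RNA separates ribosome loading from message abundance. Loading is known to respond to nutrient signalling through mTORC1, which acts on messages that start with a terminal oligopyrimidine (TOP) tract, and to phosphorylation of the initiation factor eIF2, which raises translation of ATF4 and a few other messages with upstream reading frames. Arginine methylation occurs on many RNA-binding proteins, splicing factors and ribosome-associated proteins.

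The second input was used because the inhibitor labels may be crossed between the assays. With DMSO left out, the log2 ratio of PRMT4-label to PRMT1-label footprints and the same ratio of the inputs had a Pearson correlation of -0.42 and a Spearman correlation of -0.41 over the 8117 genes, which are not independent replicates. HMOX1, which encodes the stress-induced enzyme haem oxygenase, had a log2 ratio of PRMT4 to PRMT1 label of -2.76 in footprints and of 2.80 in input. Which label is right in which assay was not tested. Of 10 genes listed as markers of HEK293 cells, 6 averaged at least 5 TPM. Of 14 markers of blood, liver, pancreas, muscle, connective tissue and other cell types, 13 were found and 4 were at 0 in every library, INS, MYH7 and TTR among them. HBA1 averaged 8.41 TPM, and the sum of the list lay between 8.63 and 24.9 TPM over the 6 libraries. Protein-coding genes held 70.6% of all TPM in the PRMT4-label footprints and 74.3% in the DMSO footprints, but 33.4% in the PRMT4-label input, 38.7% in the PRMT1-label input and 45.7% in the DMSO input. TPM keeps no read depth, so the depth of the libraries is unknown and no counting error can be given.

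Few messages differed by much. With the PRMT4-label input, 16 genes had a TE at least 2-fold higher under the PRMT4 label than in DMSO, 0.197% of those included, and 69 had one at least 2-fold lower, 0.85%. Without the centring the split was 224 higher and 16 lower. With the PRMT1-label input, 11 genes (0.136%) passed 2-fold upwards and 8 (0.0986%) downwards. The TE change had an SD across genes of 0.36 with the PRMT4-label input and of 0.24 with the PRMT1-label input, so the values spread less with the second input.

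More of the difference lay in the input than in the footprints. The input change had an SD across genes of 0.32, against 0.25 for the footprint change, and was the larger in size in 4760 of the 8117 genes (58.6%). The 69 messages with lower TE had a median footprint change of -0.50 and a median input change of 0.67, and their PRMT1-label input differed from DMSO by a median of 0.00. In 63 of them fewer footprints and more input both went into the ratio. In 41 the input part was the larger, beside 58.6% of all genes. Messages with lower or higher TE were picked by this same ratio. The directions of their footprint and input changes therefore follow in part from the choice. The 16 messages with higher TE had a median footprint change of 0.52 and a median input change of -0.68. The messages with lower TE were also long and GC-rich, with a median coding length of 1881 bases and 57.8% GC, whereas the messages with higher TE had 672 bases and 44.7% GC. All 8117 genes together had medians of 1311 bases and 49.1% GC.

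**Figure D1:**
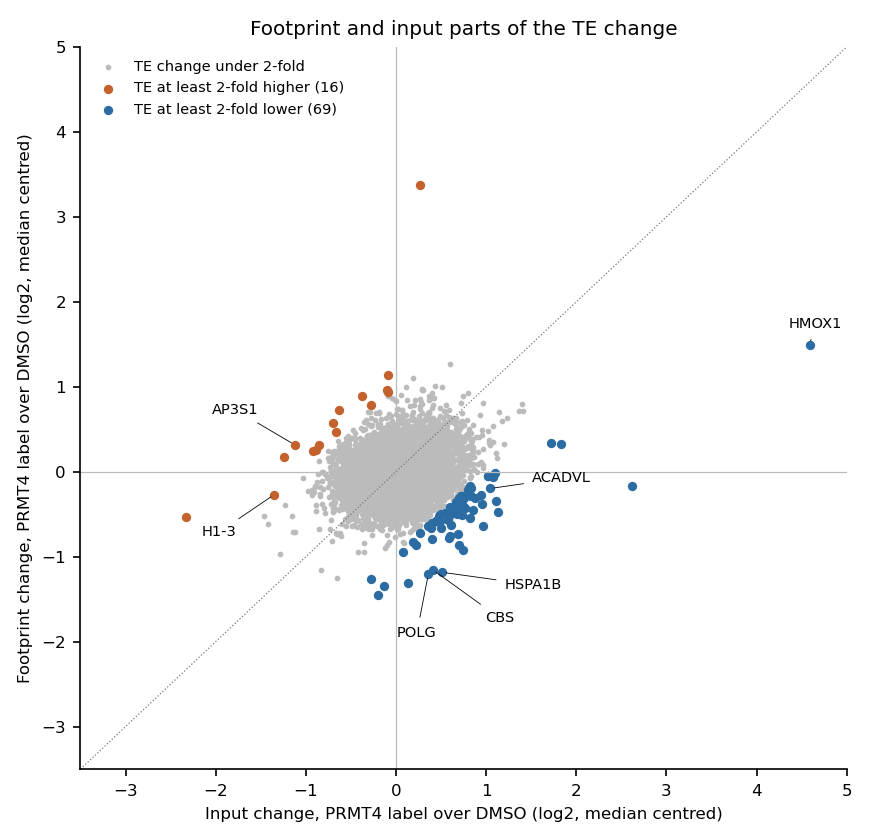
Footprint change (vertical) against input change (horizontal), PRMT4 label over DMSO, log2 and median centred, 1 point per gene. The 69 genes with TE at least 2-fold lower lie below the dotted line of equal change and the 16 higher ones above it, and HMOX1 stands alone at an input change of 4.59.

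Among genes with a mean of at least 20 TPM, the TE change farthest from 0 belonged to HMOX1 (ENSG00000100292.16_2). It had 93.9 TPM in PRMT4-label footprints, against 33.0 TPM in DMSO footprints. Its input stood at 157 TPM under the PRMT4 label and 21.6 TPM under the PRMT1 label, against 7.53 TPM in DMSO. Footprints were thus higher than in DMSO, but the PRMT4-label input was higher by far more. The ratio of footprints to input was 0.603 under the PRMT4 label and 3.99 in DMSO, for a TE change of -3.11. With the PRMT1-label input the ratio was 4.19 and the TE change -0.09. The low TE of HMOX1 was present with the PRMT4-label input and absent with the other.

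Other named messages of that abundance with low TE were of mixed function. POLG (ENSG00000140521.12_3), the catalytic subunit of the mitochondrial DNA polymerase, had 3.98 TPM in PRMT4-label footprints, against 10.6 TPM in DMSO footprints. Its input was 44.3 TPM under the PRMT4 label and 36.0 TPM under the PRMT1 label, against 45.0 TPM in DMSO. The inputs of POLG lay close together and its footprints did not, and the TE change was -1.58 with the PRMT4-label input and -1.07 with the PRMT1-label input. ACADVL, the very-long-chain acyl-CoA dehydrogenase of mitochondria, showed the opposite pattern: 20.9 TPM in PRMT4-label and 24.3 TPM in DMSO footprints, with inputs of 35.7 TPM under the PRMT4 label, 18.03 TPM under the PRMT1 label and 22.2 TPM in DMSO. Its TE change was -1.25 with the PRMT4-label input and -0.09 with the PRMT1-label input. UNKL, a zinc finger protein, likewise stood at -1.12 and -0.32, and FAM241B at -1.20 and -0.20.

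Other low values belonged to genes that have near-identical copies in at least some genome builds. Reads may be split among such copies. Whether this happened in the build used here was not tested, so these values are uncertain. HSPA1B, an inducible HSP70 chaperone whose coding sequence is nearly that of HSPA1A, had 402 TPM in PRMT4-label and 923 TPM in DMSO footprints, and its TE change was -1.70 with the PRMT4-label input and -0.37 with the PRMT1-label input. CBS, the first enzyme of transsulphuration, had 6.67 TPM in PRMT4-label and 16.2 TPM in DMSO footprints, with TE changes of -1.57 and -0.60. FAM72A stood at -1.08 and -0.33. At a mean of at least 20 TPM, 3 gene IDs without a symbol, noted after their values were seen, also had a TE at least 2-fold lower with the PRMT4-label input. The lowest of them, ENSG00000144785, had 153 TPM in PRMT4-label and 174 TPM in DMSO footprints, with inputs of 6.68 TPM under the PRMT4 label, 0.45 TPM under the PRMT1 label and 0.63 TPM in DMSO, and stood at -2.80 and -0.18. Its PRMT1-label and DMSO inputs lay under the 1 TPM added to each value, so both TE values depend strongly on that addition. The near-identical pair that encodes mitochondrial creatine kinase stood on opposite sides of 0. CKMT1B stood at -1.22 with the PRMT4-label input and -0.56 with the PRMT1-label input. CKMT1A, named after its value was seen, stood at 0.88 and 1.61.

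Among the 16 messages with higher TE, the input part was the larger in 9, beside 58.6% of all genes. The high values named here at a mean of at least 20 TPM came mostly from a lower PRMT4-label input. AP3S1, a subunit of the AP-3 adaptor that sorts cargo to lysosomes, had 21.7 TPM in PRMT4-label and 17.4 TPM in DMSO footprints. Its input was 11.3 TPM under the PRMT4 label and 33.5 TPM under the PRMT1 label, against 33.8 TPM in DMSO. Only the PRMT4-label input of AP3S1 stood apart, and the TE change was 1.42 with that input and 0.15 with the PRMT1-label input. The kinetochore protein SPC25 gave 1.13 and 0.24, the linker histone H1-3 gave 1.07 and 0.07, and the transcriptional coactivator SUB1 gave 1.0 and 0.10. For the chromatin protein HMGB3 the values were 0.95 and -0.01, for the ribosome biogenesis factor NSA2 0.94 and 0.22, and for carbonic anhydrase CA2 0.93 and 0.06. The highest value at a mean of at least 20 TPM, 1.79, belonged to the clone-named gene AL035425.2, whose PRMT4-label input was 7.64 TPM against 55.6 TPM in DMSO, and which stood at -0.62 with the PRMT1-label input. SYNJ2BP-COX16, a readthrough of neighbouring genes, stood at 0.95 and 0.38. The 16 higher genes also hold a gene ID without a symbol, ENSG00000261459, named after its value was seen. It had 9.29 TPM in PRMT4-label footprints and is listed at 0 in DMSO footprints. Its TE changes, 3.10 and 3.36, were the highest of all included genes with either input. Since its DMSO footprint was 0, they rest on the 1 TPM added to each value.

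**Figure D2:**
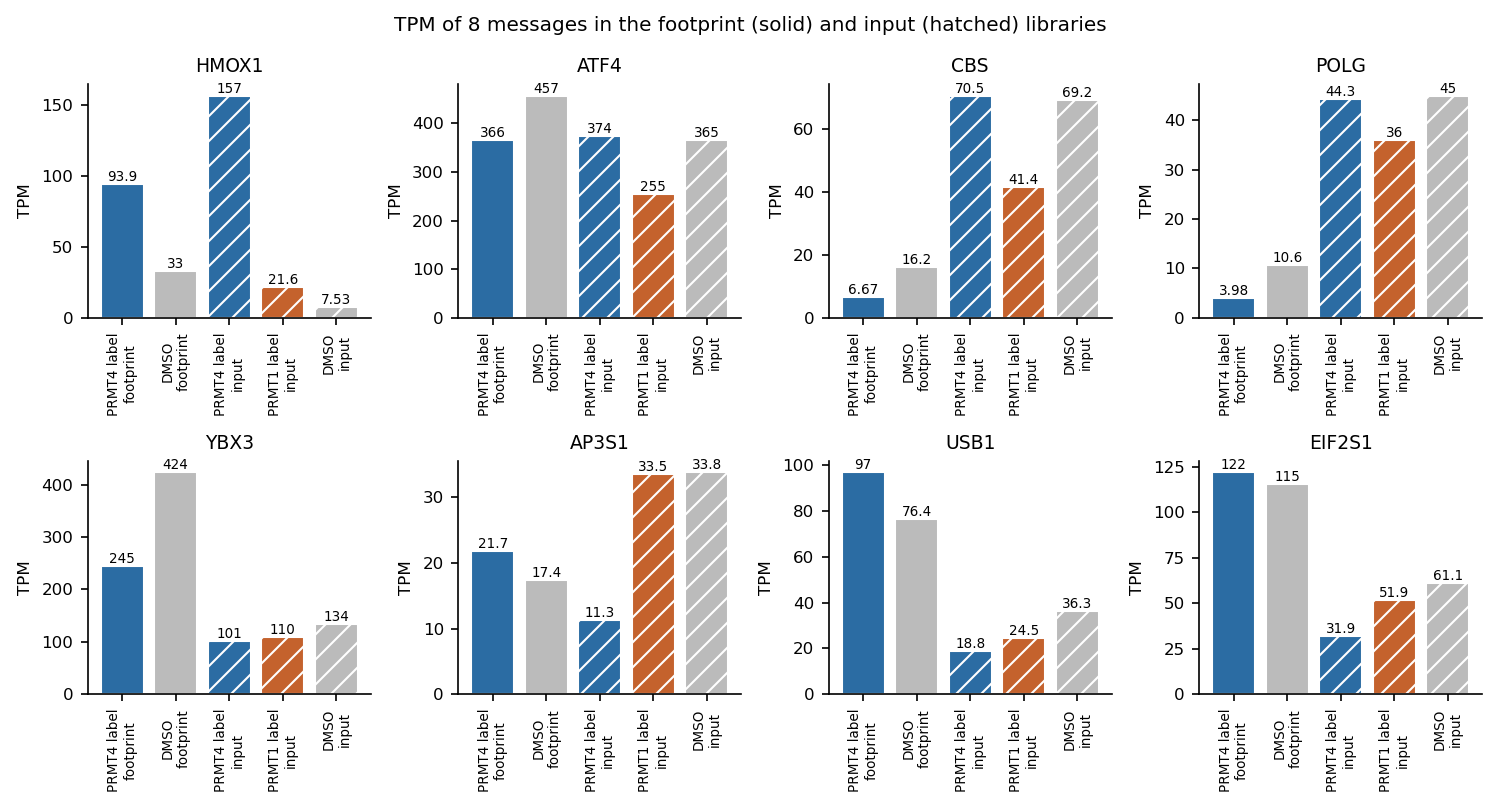
TPM of 8 messages in single libraries: PRMT4-label and DMSO footprints (solid bars) and PRMT4-label, PRMT1-label and DMSO inputs (hatched bars), each vertical axis starting at 0. HMOX1 and AP3S1 differ mainly in the PRMT4-label input, at 157 and 11.3 TPM, whereas POLG and YBX3 differ mainly in footprints, at 3.98 and 245 TPM under the PRMT4 label.

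A few messages were far from 0 whichever input was used. On the low side were POLG, TIMM10B, DHTKD1, U2AF1 and YBX3. TIMM10B, of the mitochondrial inner membrane import machinery, had 16.9 TPM in PRMT4-label and 28.4 TPM in DMSO footprints, while its inputs were 33.6 TPM under the PRMT4 label, 38.8 TPM under the PRMT1 label and 39.1 TPM in DMSO, which gave TE changes of -0.88 and -0.86. DHTKD1, a mitochondrial dehydrogenase subunit of lysine breakdown, had 4.96 TPM in PRMT4-label and 10.5 TPM in DMSO footprints and stood at -1.03 and -0.79. In these messages the footprints were lower under the PRMT4 label and the inputs differed by less. The PRMT4-label footprints of POLG and DHTKD1 were low, at 3.98 and 4.96 TPM, and enter both of their TE values. With a pseudocount of 5 TPM and the PRMT4-label input, POLG stood at -1.07 and DHTKD1 at -0.66. YBX3, a cold-shock domain protein that binds RNA, had 245 TPM in PRMT4-label and 424 TPM in DMSO footprints, with inputs of 101 TPM under the PRMT4 label, 110 TPM under the PRMT1 label and 134 TPM in DMSO, and TE changes of -0.77 and -0.67. U2AF1, the small subunit of the factor that recognises 3′ splice sites, stood at -1.04 and -0.72. A near-identical copy of it is listed in some genome builds. Whether reads were split with a copy in the build used here was not tested, so its value is uncertain.

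On the high side, at the same abundance, were ZNG1E, ZNF33B, USB1 and NEDD8-MDP1. USB1, which trims the end of U6 snRNA, had 97.0 TPM in PRMT4-label and 76.4 TPM in DMSO footprints. Its inputs were 18.8 TPM under the PRMT4 label and 24.5 TPM under the PRMT1 label, against 36.3 TPM in DMSO, and its TE changes were 0.87 and 0.72. Here both inhibitor inputs lay under the DMSO input while footprints lay over it. ZNF33B, a KRAB zinc finger protein, had 49.3 TPM in PRMT4-label and 26.7 TPM in DMSO footprints and stood at 0.91 and 0.80. ZNG1E, at 1.16 and 0.95, has near-identical copies, and NEDD8-MDP1, at 0.71 and 0.97, is a readthrough of neighbouring genes, so both are uncertain.

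**Figure D3:**
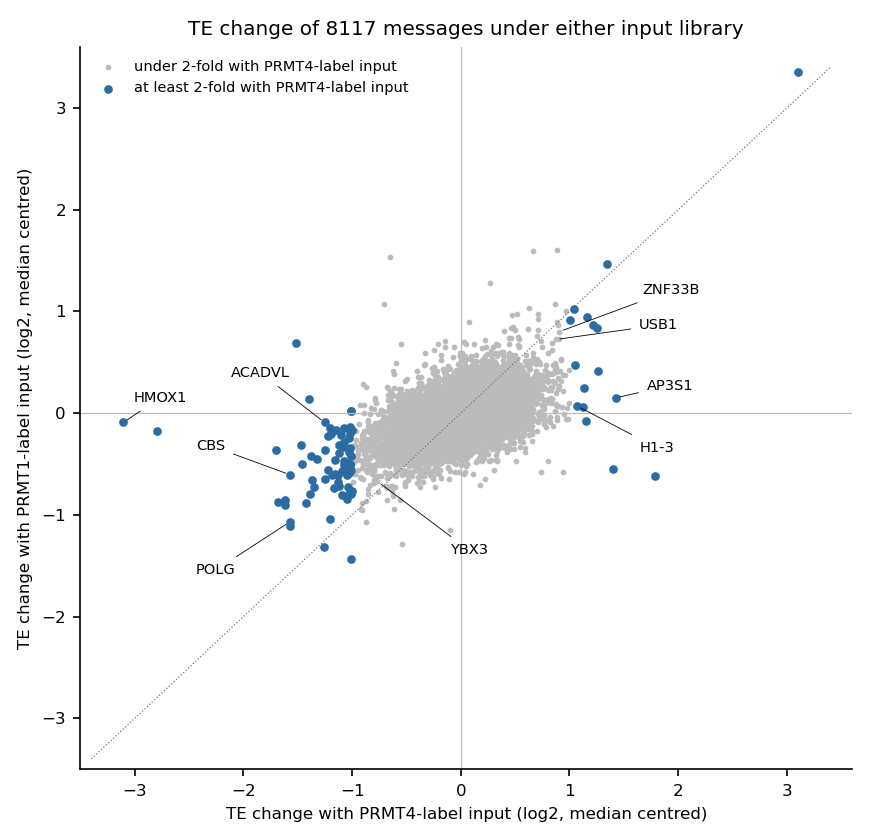
TE change, PRMT4 label over DMSO (log2, median centred), with the PRMT4-label input (horizontal) and the PRMT1-label input (vertical), 1 point per gene, with the dotted line marking equal values. Footprints and DMSO libraries are shared by both axes. HMOX1 lies at -3.11 and -0.09, POLG at -1.58 and -1.07, and AP3S1 at 1.42 and 0.15.

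The messages of the targeted enzymes differed little in TE. CARM1, which encodes PRMT4, had 81.1 TPM in PRMT4-label and 99.9 TPM in DMSO footprints, with inputs of 23.6 TPM under the PRMT4 label, 22.8 TPM under the PRMT1 label and 32.0 TPM in DMSO. Its TE change was -0.25 with the PRMT4-label input and 0.01 with the PRMT1-label input. PRMT1 had 207 TPM in PRMT4-label and 276 TPM in DMSO footprints. Its inputs were 86.1 TPM under the PRMT4 label, 90.7 TPM under the PRMT1 label and 136 TPM in DMSO. Footprints and inputs of PRMT1 were thus both lower than in DMSO, and its TE changes were -0.14 and 0.00. An inhibitor acts on the protein, so these messages do not check the labels.

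Gene lists were then described by their medians, beside a median of 0 and 50.0% of values below 0 over all genes by construction with either input. Of 40 lists with 5 or more included members, 13 had a median of at least 0.2 in size with the PRMT4-label input, where medians ran from -0.56 to 0.31. With the PRMT1-label input 0 of the 40 did, and medians ran from -0.14 to 0.10.

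Messages of the integrated stress response, the programme set off by eIF2 phosphorylation and carried out by ATF4, had the lowest median. Of 30 listed genes 24 were included, and 23 of these lay below 0 with the PRMT4-label input, with a median of -0.56. Of the 24, 3 were at least 2-fold lower, CBS, STC2 and SLC7A1, against 69 of all 8117 genes (0.85%). With the PRMT1-label input 11 of 24 lay below 0, with a median of 0.01, and 0 were at least 2-fold lower. The median footprint change of the list was -0.21, and its median input change was 0.36 under the PRMT4 label and -0.21 under the PRMT1 label, so the inputs stood on opposite sides of DMSO. STC2, a secreted glycoprotein, stood at -1.25 with the PRMT4-label input and -0.36 with the other. SLC7A1, an arginine transporter named after its value was seen, stood at -1.01 and 0.02. The highest members were the tRNA exporter XPOT, at 0.10 with either input, and the transcription factor ATF5, at -0.07 and 0.19.

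ATF4 itself had 366 TPM in PRMT4-label and 457 TPM in DMSO footprints. Its inputs were 374 TPM under the PRMT4 label, 255 TPM under the PRMT1 label and 365 TPM in DMSO. The PRMT1-label input of ATF4 was the lowest of the 3, and the TE change was -0.73 with the PRMT4-label input and 0.03 with the PRMT1-label input. EIF2S1, the subunit of eIF2 that stress kinases phosphorylate, had 122 TPM in PRMT4-label and 115 TPM in DMSO footprints, with inputs of 31.9 TPM under the PRMT4 label, 51.9 TPM under the PRMT1 label and 61.1 TPM in DMSO, and TE changes of 0.61 and 0.14. Of 14 included messages known for regulatory upstream reading frames, 11 lay below 0 with the PRMT4-label input (median -0.14) and 5 with the PRMT1-label input (median 0.07). Among them MDM2, the ubiquitin ligase of p53, stood at -0.55 and -0.30, and FAM13B at 0.28 and 0.12. Of the 10 included genes for eIF2, its kinases and their regulators, the lowest was GCN1, an activator of the kinase GCN2, at -0.69 and -0.33, and the list medians were 0.04 and -0.08.

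The promoter of ASNS, asparagine synthetase, a textbook target of ATF4, is shown because it holds the composite element that ATF4 binds with C/EBP partners. The stretch below is from RefSeq, at chr7:97872443-97872502 on the minus strand of GRCh38.p14, 5′ to 3′, with the match to TGATGNAA in capitals.
ASNS: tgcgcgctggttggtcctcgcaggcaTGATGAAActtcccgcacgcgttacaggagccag
A match to this motif on either strand, from 250 bases before to 50 after the first listed start, was found in 4 of 21 stress response genes with a promoter entry (19.0%, ATF3, ASNS, SLC3A2 and SLC7A1), against 102 of 6737 included genes (1.51%). The match describes the letters of the window and is not evidence of binding in these cells. ASNS had 17.8 TPM in PRMT4-label and 24.2 TPM in DMSO footprints, with inputs of 37.3 TPM under the PRMT4 label, 23.0 TPM under the PRMT1 label and 35.1 TPM in DMSO. Its TE change was -0.89 with the PRMT4-label input and 0.00 with the PRMT1-label input.

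Aminoacyl-tRNA synthetases, several of which are ATF4 targets, had a median of -0.25 with 14 of 20 below 0 with the PRMT4-label input, and a median of 0.00 with 10 of 20 below 0 with the PRMT1-label input. MARS1, the methionyl-tRNA synthetase, stood at -1.01 and 0.02. AARS1, for alanine, stood at -0.73 and -0.23, and KARS1, for lysine, was the highest at 0.45 and 0.23. Footprints of the list were lower under the PRMT4 label, with a median change of -0.26.

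Genes that p53 is known to induce gave a similar picture, although the large T antigen of this line binds p53. Of 21 included genes, 18 lay below 0 with the PRMT4-label input (median -0.55) and 10 with the PRMT1-label input (median 0.00). The median footprint change was 0.03 and the median input change 0.55, so the footprints of the list hardly differed from DMSO. CDKN1A, the cell cycle inhibitor p21, had 21.3 TPM in PRMT4-label and 18.3 TPM in DMSO footprints, with inputs of 22.03 TPM under the PRMT4 label, 10.7 TPM under the PRMT1 label and 12.9 TPM in DMSO. Its TE change was -0.90 with the PRMT4-label input and 0.29 with the PRMT1-label input. GADD45A, a DNA damage response protein, stood at -0.97 and -0.17, and TRIAP1, a small protein that restrains apoptosis, at 0.46 and 0.27.

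Messages of the secretory route were low with the PRMT4-label input. Many proteins of this route, though not all of those listed here, are made at the endoplasmic reticulum (ER). Of 20 included ER chaperones and folding factors, 18 lay below 0 with the PRMT4-label input (median -0.45) and 13 with the PRMT1-label input (median -0.12). SEL1L, of the ER degradation machinery, stood at -0.89 and -0.46, while the chaperone HSPA5 (BiP) stood at 0.20 and 0.21. Of 40 plasma membrane and secreted protein genes 19 were included, with medians of -0.45 and -0.08, the lowest being BSG (basigin) at -0.88 and -0.26 and the highest the integrin ITGB1 at 0.42 and 0.46. Lysosomal genes, 13 included of 24, had medians of -0.40 and 0.01. CTSA, a lysosomal carboxypeptidase, had 4.06 TPM in PRMT4-label and 6.12 TPM in DMSO footprints, with TE changes of -1.62 and -0.90, and the saposin precursor PSAP stood at -1.08 and -0.28. For the 33 genes of the translocon, oligosaccharyltransferase and signal recognition particle the medians were -0.14 and -0.06, with STT3A, a catalytic subunit of the transferase, at -0.88 and -0.41 and SEC61G, a translocon subunit, at 0.68 and 0.10. Cholesterol synthesis genes, 23 included, had medians of -0.24 and -0.06, with 20 below 0 with the PRMT4-label input and 15 with the PRMT1-label input. In that list SREBF2, the transcription factor of the pathway, stood at -0.91 and -0.33.

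TOP messages, which encode ribosomal proteins and elongation factors, stood near the median gene with either input. The start-site windows of 4 of them, from RefSeq on GRCh38.p14, are shown because the pyrimidine tract at the first bases is the feature that defines the class. Each runs from 10 bases before the first listed start, 5′ to 3′, with the run of pyrimidines that begins at the start in capitals. The windows are RPS6 at chr9:19380217-19380246, RPLP0 at chr12:120201092-120201121, EEF2 at chr19:3985444-3985473 and EEF1A1 at chr6:73521013-73521042, all on the minus strand.
RPS6: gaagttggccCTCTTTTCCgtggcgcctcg
RPLP0: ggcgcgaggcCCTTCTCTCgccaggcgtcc
EEF2: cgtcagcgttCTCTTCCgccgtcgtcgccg
EEF1A1: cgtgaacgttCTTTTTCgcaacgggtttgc
A C followed by at least 4 pyrimidines at the listed start was found in 45 of 68 ribosomal protein genes (66.2%) and 9 of 13 other TOP genes (69.2%), against 412 of 6737 included genes (6.12%).

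The median TE change of the large-subunit ribosomal proteins (50 genes) was 0.07 with the PRMT4-label input and 0.00 with the PRMT1-label input, and that of the small-subunit proteins (34 genes) was 0.07 with either. Elongation factors and other TOP messages (21 genes) had medians of -0.02 and -0.06. RPS6, a small-subunit protein and target of S6 kinase, had 1870 TPM in PRMT4-label and 1723 TPM in DMSO footprints and stood at 0.39 and 0.17. RPLP0, of the ribosomal stalk, had 1944 TPM in PRMT4-label and 1669 TPM in DMSO footprints and stood at 0.08 and 0.26. EEF2, the translocation factor, had 1588 TPM in PRMT4-label and 1765 TPM in DMSO footprints, with inputs of 2712 TPM under the PRMT4 label, 2293 TPM under the PRMT1 label and 2740 TPM in DMSO, and stood at -0.52 and -0.06. EEF1A1, which delivers tRNAs to the ribosome, stood at -0.19 and -0.26. With the PRMT4-label input the class ran from RPLP1, at -0.66 and with the other input -0.52, to RPL36A, at 0.76 and 0.09. RPS26, which has many processed copies and is uncertain, stood at 0.74 with the PRMT4-label input and at -0.58 with the PRMT1-label input. Genes of mTORC1 and of its repressors (17 included) had medians of -0.29 and -0.06, with the repressor TSC2 at -1.33 and -0.46 and the activator RHEB at 0.54 and 0.21. Initiation factors (40 genes) had medians of 0.11 and 0.03, from EIF3C at -0.68 and -0.16 to the ribosome recycling factor ABCE1 at 0.77 and 0.05. The value of EIF3C is uncertain, since it has a near-identical copy, EIF3CL.

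Ribosome biogenesis factors had a median of 0.21 with 42 of 54 above 0, against -0.02 with 26 above 0 with the PRMT1-label input. Their footprints hardly differed, with a median change of -0.08, and their PRMT4-label input was lower, with a median change of -0.32. NPM1, nucleophosmin, had 8359 TPM in PRMT4-label and 8874 TPM in DMSO footprints, with inputs of 1033 TPM under the PRMT4 label, 1598 TPM under the PRMT1 label and 2287 TPM in DMSO, and stood at 0.68 and 0.27. BRIX1, a large-subunit assembly factor, stood at 0.76 and -0.02, and NOC2L at -0.54 and -0.29. DNA replication genes (53) had medians of 0.16 and -0.03, with TIPIN, of the fork protection complex, at 0.83 and 0.26 and POLE, a replicative polymerase, at -0.64 and -0.33. Mitotic genes (39 included) had medians of 0.01 and -0.04, with CDK1 at 0.88 and 0.08 and the checkpoint kinase BUB1B at -0.81 and -0.38.

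Some lists had a small positive median also with the second input. Proteasome genes had medians of 0.21 and 0.09, with 30 and 27 of 36 above 0. Nuclear-encoded subunits of oxidative phosphorylation had medians of 0.17 and 0.07, with 59 and 55 of 76 above 0, and among them NDUFA12, of complex I, stood at 0.87 and 0.49. Mitochondrial ribosomal proteins had medians of 0.18 and 0.05, with 59 and 50 of 78 above 0, and ranged from MRPS22, at -0.58 and -0.52, to MRPL33, at 0.82 and -0.04. The proteasome assembly chaperone PSMG1 had the highest value of its list with the PRMT4-label input, 0.90, and stood at 0.07 with the other. Small shared differences of this size cannot be told apart from variation between libraries without replicates.

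Of the 13 genes that mitochondrial DNA encodes for proteins, 10 were included, and their footprints and inputs were both low. The median footprint change was -0.60, and the median input change was -0.50 under the PRMT4 label and -0.42 under the PRMT1 label. The TE change was correspondingly modest, with medians of -0.11 and -0.14. MT-CO3, a subunit of cytochrome oxidase, had 2.97 TPM in PRMT4-label and 8.56 TPM in DMSO footprints and stood at -0.61 and -0.95. MT-ATP8, of the ATP synthase, stood at 0.17 and -0.70. Glycolytic genes (17 included) likewise had low footprints, with a median change of -0.40, and medians of -0.13 and -0.08 for TE. LDHA, lactate dehydrogenase, had 676 TPM in PRMT4-label and 1117 TPM in DMSO footprints, with inputs of 144 TPM under the PRMT4 label, 251 TPM under the PRMT1 label and 417 TPM in DMSO, and TE changes of 0.42 and -0.15.

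**Figure D4:**
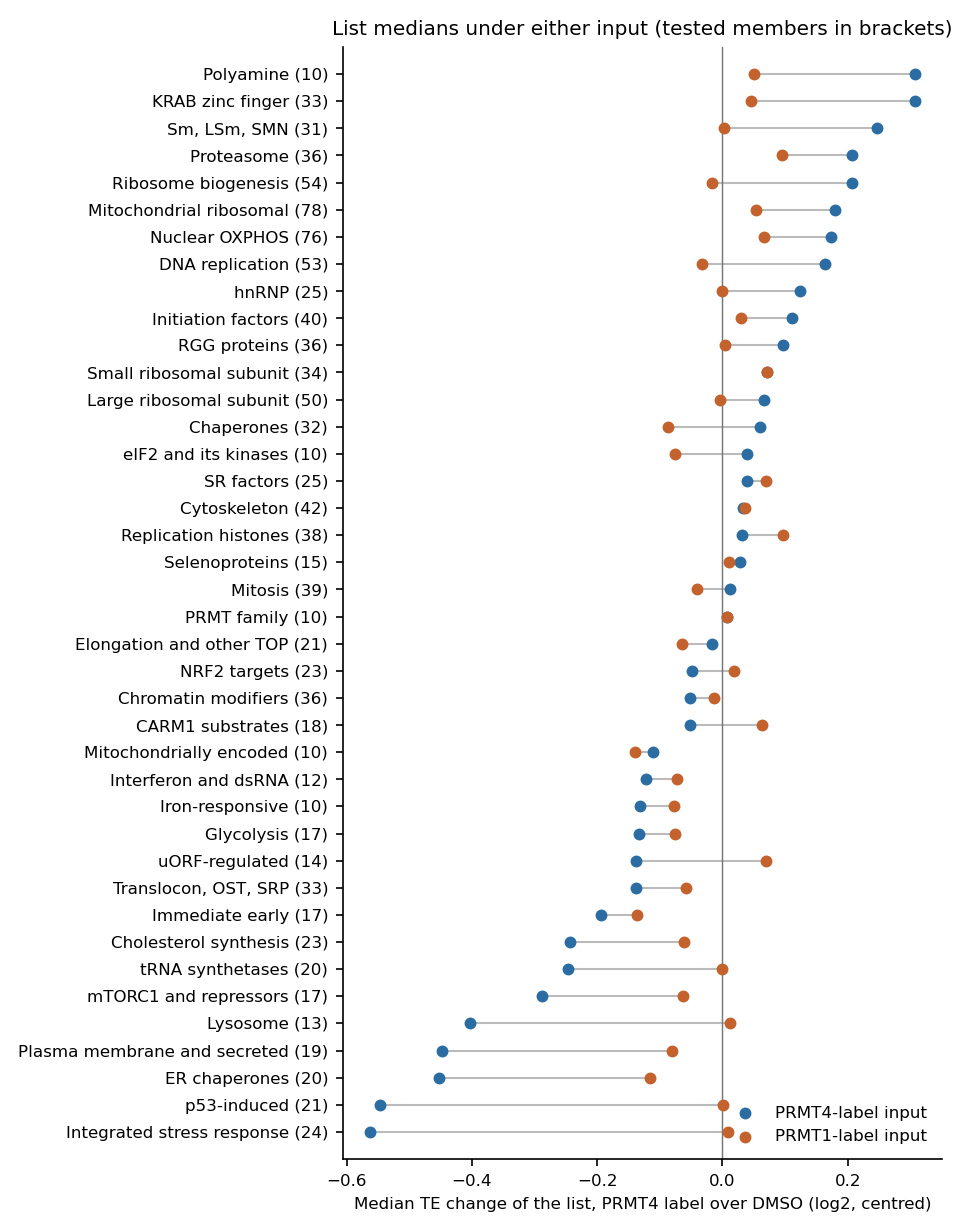
Median TE change, PRMT4 label over DMSO (log2, centred), of 40 gene lists with the PRMT4-label input (blue) and the PRMT1-label input (orange), joined by a line. Medians run from -0.56 to 0.31 in blue and from -0.14 to 0.10 in orange, and the integrated stress response and p53-induced lists lie at 0.01 and 0.00 in orange.

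The PRMT family and its partners had 10 included members of 12 and a median of 0.01 with either input. RIOK1, an adaptor of PRMT5, stood at 0.70 and 0.19, and PRMT7 at -0.52 and -0.31. Genes for known CARM1 substrates (18 included of 22) had medians of -0.05 and 0.06, with ARID1A, a subunit of the BAF chromatin remodeller, at -1.02 and -0.50 and MDH1, a malate dehydrogenase, at 0.40 and 0.16. RNA-binding proteins with RGG motifs (36 included) had medians of 0.10 and 0.00, and hnRNP genes (25 included) 0.12 and 0.00. In the RGG list G3BP2, a stress granule protein, stood at 0.74 and 0.02 and FXR1, a relative of the fragile X protein, at -0.67 and -0.50, and HNRNPA3 led the hnRNP list at 0.79 and 0.37. SR splicing factors and their kinases (25 included) had medians of 0.04 and 0.07, with SRSF3 at 0.59 and 0.18 and TRA2A at -0.32 and -0.52. Sm, LSm and SMN complex genes, whose proteins include methylated Sm proteins, had medians of 0.25 and 0.00. LSM8, of the U6 snRNA ring, stood at 0.86 and 0.44. SMN1, at -1.01 and -1.44, has a near-identical copy, SMN2, and is uncertain.

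KRAB zinc finger genes, repressors of transposable elements, had more footprints under the PRMT4 label. Of 33 included members of 76 listed, 30 lay above 0 with the PRMT4-label input (median 0.31) and 18 with the PRMT1-label input (median 0.04). The median footprint change was 0.35, the median input change -0.02 under the PRMT4 label and 0.35 under the PRMT1 label. ZNF529 had 8.21 TPM in PRMT4-label and 4.73 TPM in DMSO footprints, with inputs of 3.90 TPM under the PRMT4 label, 9.79 TPM under the PRMT1 label and 6.81 TPM in DMSO, and stood at 0.98 and 0.05. ZNF317 was the lowest at -0.24 and -0.23.

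Other lists held single messages of note. Replication-dependent histone genes (38 included of 56, many with near-identical copies) had medians of 0.03 and 0.10, with H4C3 at 0.63 and 0.26 and H2BC15 at -0.55 and -0.25. Chaperones (32 included) had medians of 0.06 and -0.09, with the HSP90 co-chaperone FKBP4 at 0.48 and 0.33 and the HSP40 protein DNAJB1 at -0.53 and -0.10. NRF2 targets (23 included), the class to which HMOX1 belongs, had medians of -0.05 and 0.02, with GSTM3, a glutathione transferase, at 0.65 and 0.30. The motif TGACNNAGC, which NRF2 binds with small MAF proteins, was found on either strand in 4 of 18 promoter windows of that list (22.2%, GCLM, TXNRD1, ME1 and PIR), against 240 of 6737 (3.56%). Selenoprotein genes (15 included) had medians of 0.03 and 0.01, with the thioredoxin reductases TXNRD1 at 0.56 and 0.35 and TXNRD2 at -0.70 and -0.14. Of the ferritin subunits, FTH1 stood at -0.69 and -0.21 and FTL at 0.13 and -0.01. FTL had 188 TPM in PRMT4-label and 102 TPM in DMSO footprints, and its inputs were 432 TPM under the PRMT4 label, 556 TPM under the PRMT1 label and 336 TPM in DMSO, so footprints and input were both higher than in DMSO. The list of iron-responsive messages (10 included) had medians of -0.13 and -0.08.

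Polyamine genes (10 included) had medians of 0.31 and 0.05, with OAZ2, an antizyme, at 0.56 and 0.37 and the oxidase PAOX at -0.81 and -0.34. Immediate early genes (17 included) had medians of -0.19 and -0.14, with 14 and 12 below 0. In that list ATF3 stood at -0.67 and -0.43, and MYC, with 386 TPM in PRMT4-label and 456 TPM in DMSO footprints, at 0.47 and 0.06. Cytoskeletal genes (42 included) had medians of 0.03 and 0.04, with the actin crosslinker FLNA at -1.47 and -0.32 and the capping protein CAPZA2 at 0.75 and 0.08. Interferon and double-stranded RNA genes (12 included of 31) had medians of -0.12 and -0.07, with the kinase EIF2AK2 (PKR) at 0.28 and 0.01. Chromatin modifiers (36 included) had medians of -0.05 and -0.01, with CHD3, a NuRD helicase, at -0.88 and -1.07 and SUZ12, of the Polycomb complex PRC2, at 0.87 and 0.02.

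The TE change also ran with sequence composition, in a direction that turned with the input. Over 8095 genes with an annotated transcript, the Spearman correlation with transcript GC content was -0.37 with the PRMT4-label input and 0.20 with the PRMT1-label input. GC content correlated at -0.13 with the footprint change, at 0.32 with the input change under the PRMT4 label and at -0.38 with that under the PRMT1 label. From the most GC-poor to the most GC-rich quintile of genes (1619 each), the median TE change was 0.17, 0.10, 0.01, -0.07 and -0.19 with the PRMT4-label input, and -0.07, -0.03, 0.01, 0.04 and 0.05 with the PRMT1-label input. The upper GC quintiles held most messages with TE at least 2-fold lower, 27 and 29 of the 69.

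Coding length kept its direction. Its Spearman correlation with the TE change was -0.23 with the PRMT4-label input and -0.16 with the PRMT1-label input. From the shortest to the longest quintile, at median coding lengths of 498, 897, 1311, 1884 and 3228 bases, the median TE change was 0.12, 0.05, -0.02, -0.06 and -0.12 with the PRMT4-label input and 0.05, 0.02, -0.01, -0.03 and -0.05 with the PRMT1-label input. The length of the 5′ untranslated region correlated at 0.00 and -0.02, and the number of upstream start codons at -0.01 and 0.01. These correlations are across genes of the same 4 libraries, with the PRMT1-label input besides where it is named, and are given as descriptions. The part of library preparation in them was not tested.

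**Figure D5:**
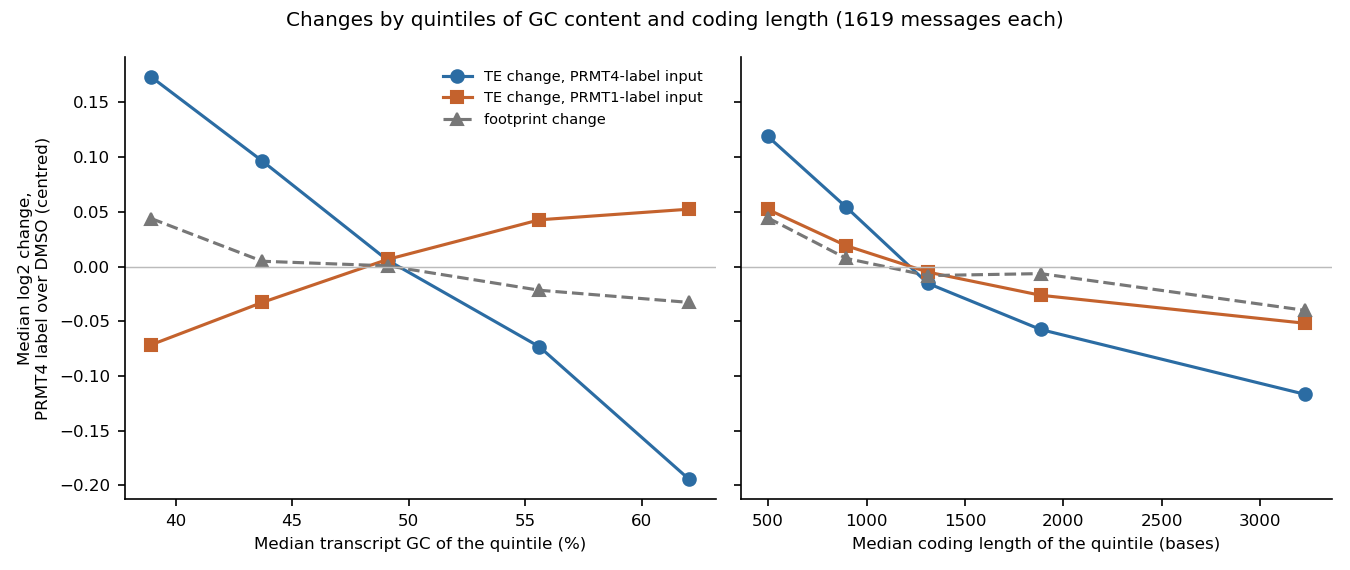
Median change, PRMT4 label over DMSO (log2, centred), in quintiles of genes by transcript GC content (left) and coding length (right), 1619 genes in each, for TE with the PRMT4-label input (blue), TE with the PRMT1-label input (orange) and footprints (grey). The GC trend runs to -0.19 in blue and 0.05 in orange, and the length trend to -0.12 and -0.05.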

How the data were processed

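The deposited table gave 6 columns of TPM, 1 per library, for 60461 gene IDs; per the submitters' processing notes the authors used GRCh37.p13, RSEM 1.2.22, STAR 2.4.2a, Bowtie 1.1.2 and cutadapt 1.18, whose roles those notes leave out. The protocols in the labels give RNase I digestion of lysates and collection of monosomes from sucrose gradients. They call all 6 libraries ribosome-protected RNA, and the preparation of the input RNA is therefore uncertain. TPM keeps no depth. 41 copies of Y pseudoautosomal genes, at 0 TPM, were dropped. Names, biotypes, GC content and lengths came from GENCODE 29, matched by gene ID for 56157 of 60420 genes. A pseudocount of 1 TPM was added, which understates changes of low genes. With 1 library per group no model was fitted. Alternatives changed the pseudocount, the filter, the centring, the input library and the scaling, or removed trends with GC content, length and abundance. Among genes with a symbol and a mean of at least 20 TPM, those named were the 10 highest and 10 lowest in TE change. At that level the 5 highest and 5 lowest by the smaller of both values, where these had the same sign, were named too. Up to 2 at each end of each list were named at a mean of at least 5 TPM. PRMT1, CARM1, ATF4, EIF2S1 and EEF2 were named as well, and ASNS, RPS6, RPLP0 and EEF1A1 were added for their sequences. A few genes that the rule names are not reported here. Members and lists were chosen with earlier results of these data known. Calculations used Python 3.11.15, pandas 2.3.3, scipy 1.17.1 and statsmodels 0.14.6, and were tested on simulated data.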

Additional observations from a re-analysis of the deposited data

Results flagged for a closer look

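HMOX1 and ACADVL had TE changes of at least 2-fold in opposite directions under the inhibitor labels, each against the same DMSO libraries and each with the input of its own label. For HMOX1 the TE change was -3.11 under the PRMT4 label and 2.82 under the PRMT1 label, and with the PRMT4-label footprints over the PRMT1-label input it was -0.09. For ACADVL it was -1.25 under the PRMT4 label and 1.02 under the PRMT1 label, and -0.09 with the PRMT1-label input. The difference between the labels was not tested, since each group had 1 library. In all, 11 of the 8117 genes moved at least 2-fold in opposite directions in this way.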

How the results depend on the processing

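No paired analysis was possible because each group had 1 library. The counts of genes at least 2-fold higher and lower (16 and 69) were 6 and 16 with a pseudocount of 5 TPM, 39 and 116 with a mean TPM of at least 1, 4 and 16 with at least 20, and 224 and 16 without centring. Without a filter 120 were higher and 75 lower, so that higher genes outnumbered lower ones, and with rescaling over protein-coding genes 28 were higher. With GC and length adjusted 41 were lower, and with the PRMT1-label input 8. With that input and the adjustment together, chosen after seeing the data, the counts were 9 and 8.

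Directions are given for list medians of at least 0.1 in size; smaller ones also changed sign in several settings. Without centring, which adds 0.38 to every value, 11 such medians turned positive: tRNA synthetases 0.13, upstream reading frames 0.24, translocon 0.24, glycolysis 0.25, mitochondrially encoded 0.27, cholesterol 0.14, iron 0.25, immediate early 0.19, mTORC1 0.09, interferon 0.26 and HEK293 markers 0.15. Without a filter, upstream reading frames (0.01), translocon (0.08), glycolysis (0.10), mitochondrially encoded (0.07) and iron (0.09) did, and with a pseudocount of 5 TPM mitochondrially encoded genes (0.08). With the PRMT1-label input the integrated stress response (0.01), upstream reading frames (0.07), lysosome (0.01), DNA replication (-0.03), ribosome biogenesis (-0.02) and AL035425.2 (-0.62) reversed; with the adjustment added, the stress response (0.02), upstream reading frames (0.04), DNA replication (-0.04) and AL035425.2 (-0.62) did. Among named genes under 2-fold, PRMT1, CARM1, ATF4 and HMGB3 crossed 0 with the PRMT1-label input, at 0.00, 0.01, 0.03 and -0.01, PRMT1 and CARM1 without centring (0.24 and 0.13), and PRMT1 without a filter (0.09). Apart from the construction of these settings, the cause was not tested.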
